A study of Mus musculus with 12 samples.

Results

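The genes described here are 35 well-known members of the response to type I interferon, the antiviral programme of vertebrate cells. They were taken as the rows of the deposited expression table whose gene name equals one on a list of 35 symbols. All 35 were found, among 55322 rows in all. Their levels were measured by RNA sequencing in conventional dendritic cells (cDCs) of the mouse spleen, the cells that take up antigen and present it to T cells. There were 12 libraries, 3 for each of M-cDC1, M-cDC2, L-cDC1 and L-cDC2, where cDC1 and cDC2 are the main cDC subsets. The letters L and M are not spelled out in the labels, and the title of the study speaks of cDCs with a lymphoid origin.

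Every library carries the genotype Il7r-cre; Rosa26-lsl-tdTomato, while the design text calls the animals naive wild type C57BL/6J, and their age was 7 to 8 weeks. In such mice Cre is made under control of Il7r, and cells with a history of Il7r expression, lymphocytes included, become fluorescent. Whether the reporter was used in a sort, and for which libraries, is not stated. No group received interferon or a virus, so all levels are those of unstimulated cells. The labels do not tie the 3 replicates of a group to separate animals. P-values therefore describe only how these samples spread, and that spread may be technical.

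Type I interferons are secreted proteins that bind a receptor built from Ifnar1 and Ifnar2. The receptor activates the kinases Jak1 and Tyk2, which act on Stat2. A complex that contains Stat2 and Irf9 binds a short repeat of GAAA units, the interferon-stimulated response element, near the start of target genes. The targets include enzymes that sense or cut viral RNA, proteins that block translation of viral messages, and feedback inhibitors. Many of them are also expressed at a low, tonic level in cells that have met no virus, and dendritic cells are known as both sources and responders of interferon.

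The letters of that element stand near the start of some members, and these stretches are printed here because the members were not chosen by sequence. RefSeq promoters of build GRCm38.p6, from 250 bases before to 50 bases after a gene's start, were given for 25 of the 35 members. No entry was given for Parp14, Mx2, Oas2, Ifi27l2a, Parp9, Usp18, Dhx58, Zbp1, Mx1 and Rtp4. The letters GAAANNGAAA, searched on both strands, with N for any base and with overlapping matches counted, were present in 10 of the 25 (40%). Among 27025 genes with a promoter in the same set, 1079 (3.99%) held them. A second pattern, TTCNNNGAA, was also searched and was present in 6 of the 25 (24%), against 9.55% of the genes. The matches described below are those of GAAANNGAAA. Stretches around the matches that lie before the start are given for 8 members, each 5′ to 3′ on the gene's own strand. Capitals mark the bases covered by a match, and TTTC units in capitals are matches read from the opposite strand.

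Isg15, chr4:156200860-156200911, minus strand: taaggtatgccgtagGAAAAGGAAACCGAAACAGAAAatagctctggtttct
Ifit1, chr19:34640770-34640828, plus strand: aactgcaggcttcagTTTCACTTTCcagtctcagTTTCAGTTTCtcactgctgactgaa
Ifit3, chr19:34583358-34583431, plus strand: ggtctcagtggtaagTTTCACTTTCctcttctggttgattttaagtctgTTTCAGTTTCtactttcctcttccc
Oas1a, chr5:120907526-120907560, minus strand: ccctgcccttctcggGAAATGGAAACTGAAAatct
Oas3, chr5:120777710-120777749, minus strand: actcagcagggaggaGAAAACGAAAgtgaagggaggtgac
Rsad2, chr12:26456548-26456587, minus strand: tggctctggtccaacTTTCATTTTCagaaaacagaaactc
Ddx60, chr8:61928019-61928086, plus strand: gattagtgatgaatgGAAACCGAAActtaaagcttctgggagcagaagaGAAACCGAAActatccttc
Bst2, chr8:71537572-71537617, minus strand: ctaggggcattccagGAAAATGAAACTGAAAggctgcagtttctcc

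Isg15 held 3 overlapping matches, the first of them 78 bases before the start. In Ifit1 and Ifit3 both matches were read from the opposite strand, and the first lay 104 and 156 bases before the start. The first match of Oas1a lay 20 bases before the start, that of Ddx60 53, that of Oas3 75, that of Rsad2 120 and that of Bst2 130. The other matches were in Eif2ak2 and Ifih1, 18 and 32 bases after the start. A match is a description of the sequence and not of a bound site. The 8 printed stretches include Bst2, which was called higher in cDC1 within M and not within L, as described next. The other 7 genes were called lower there within both. Of the members with a match after the start, Ifih1 was called lower within both and Eif2ak2 was called in neither. Among all 35 members, 22 were called lower within both. Whether a match goes with that direction was not tested.

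Levels are given as FPKM, the reads of a gene scaled by its length in kilobases and by the total of the library, so genes can be compared with each other. Libraries held 15879864 to 24498235 reads, and 3 reads on a gene of 1 kilobase were worth 0.122 to 0.189 FPKM. The subset labels went with their markers. All 5 cDC1 markers tested were higher and all 5 cDC2 markers lower in cDC1 than in cDC2, within M and within L. The L libraries held more RNA of lymphocyte genes than the M libraries. The summed FPKM of 7 B cell markers was 579 to 903 in L-cDC1 and 844 to 3174 in L-cDC2, against 304 to 375 in the M libraries. That of 8 T and NK cell markers was 10.7 to 96.7 in the L libraries and 0.137 to 1.17 in the M libraries. The 6 markers of plasmacytoid dendritic cells, the specialised interferon producers, summed to 5.94 to 7.18 FPKM in the cDC1 libraries and 3.47 to 6.90 in the cDC2 libraries. Among them Siglech was at most 0.808 FPKM in any library and Cox6a2 at most 2.29. Ccr9 had 4.35 to 5.70 FPKM in the cDC1 libraries and 0.177 to 0.7997 in the cDC2 libraries, and Tcf4 had 0.689 to 1.23 and 2.41 to 3.49. Ccr9 was called higher and Tcf4 lower in cDC1, within M and within L. Of 6 macrophage markers, 5 were lower and 1 higher in cDC1 within M, and 4 and 1 within L. Most of their sum, 103 to 154 FPKM in the cDC2 libraries and 6.09 to 11.1 in the cDC1 libraries, was Adgre1, with 90.3 to 134.0 and 1.22 to 2.90 FPKM. Vcam1 was the macrophage marker called higher in cDC1. Erythroid markers summed to 0.134 to 5.29 FPKM in the cDC2 libraries and 22.0 to 50.5 in the cDC1 libraries. The part of these other markers in the subset differences was not tested.

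Tonic expression, meaning RNA found without stimulation, was present in all 4 groups and was uneven across the members. Whether these levels depend on interferon was not tested. In M-cDC2, 25 of the 35 members had a mean of at least 10 FPKM, 9 lay between 1 and 10 and 1 lay below 1. In L-cDC2 the corresponding numbers were 23, 11 and 1. In both cDC1 groups they were 12, 14 and 9. The median of the member means was 4.71 FPKM in M-cDC1 and 3.98 in L-cDC1, against 15.4 in M-cDC2 and 15.8 in L-cDC2. Summed over the 35 members, each cDC1 library held 319 to 366 FPKM and each cDC2 library 851 to 1070. Without Ifi27l2a the sums were 289 to 335 FPKM in the cDC1 libraries and 638 to 746 in the cDC2 libraries. No cDC1 library reached the lowest cDC2 library in either sum. The member with the highest level was Ifi27l2a in both cDC2 groups and Bst2 in both cDC1 groups, so the order of the members changed with the subset. In bulk samples such as these, a smaller share of cells that express a gene and less RNA in each cell cannot be told apart.

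**Figure D1:**
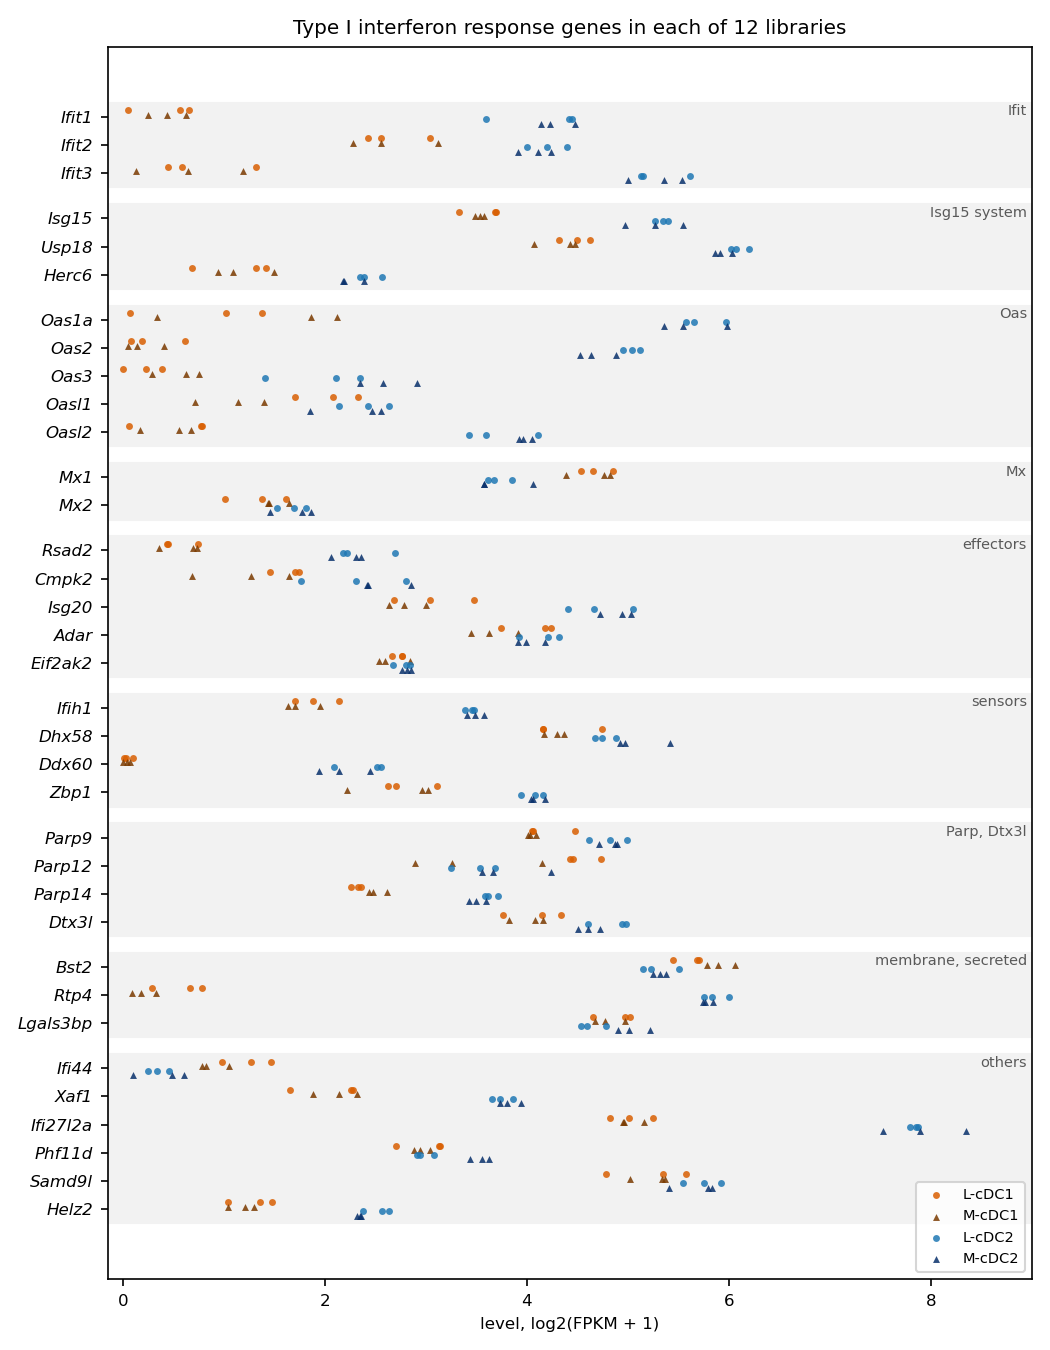
Levels of the 35 members in each of the 12 libraries as log2(FPKM + 1) on the horizontal axis, with the members grouped by role and the 4 groups shown by colour and marker. The cDC2 points of Ifit1, Ifit3, Oas1a, Oas2, Oasl2, Rtp4 and Ddx60 stand far to the right of the cDC1 points. Those of Eif2ak2, Adar and Lgals3bp overlap with the cDC1 points in level.

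Most members were lower in cDC1 than in cDC2, whichever of M or L was examined. Differences were tested with limma on log2(FPKM + 1) over 12434 genes with a threshold of 0.05 on the adjusted p. On this scale, genes at low levels show less than their full change. Some members passed the filter on low values only through the subset where they were higher, as named under the processing. Within M, 26 of the 35 members were called lower in cDC1 and 2 higher, where 25.4% of all genes tested were called lower and 12.7% higher. Within L, 23 were called lower and 3 higher, where 26.6% of all genes were called lower and 12.9% higher. The median log2 difference of the members was -1.36 within M and -1.29 within L, against -0.18 and -0.19 over all genes tested. The balance over all genes depended on scaling. As deposited, 33.2% of the calls within M and 32.7% within L were higher in cDC1. With median-of-ratios scaling these shares were 48.9% and 48.7%, with quantile normalization 53.4% and 52.6%. The median over all genes then lay at -0.03 within M and -0.04 within L under the first, and at 0.04 and 0.02 under the second. The members' medians under the same settings were -1.18 and -1.15, then -1.06 and -1.05. A set of 22 members was called lower within both M and L, which is 84.6% of those called lower within M and 95.7% of those called lower within L. The same overlap was not counted over all genes, so these shares cannot be read as a trait of the members.

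The Ifit family binds viral RNA ends and blocks translation, and all 3 members were lower in cDC1. Ifit3 had 48.0, 34.1 and 34.4 FPKM in L-cDC2 and 45.3, 40.1 and 31.1 in M-cDC2. In L-cDC1 it had 0.364, 0.497 and 1.497 FPKM, and in M-cDC1 0.561, 0.0962 and 1.28. The groups were far apart, with no cDC2 library below 31.1 FPKM and no cDC1 library above 1.497. The log2 difference of Ifit3 was -4.64 within M (SE 0.28, limma adjusted p = 1.47e-08) and -4.52 within L (SE 0.28, limma adjusted p = 1.88e-08). Ifit1 averaged 18.6 ± 2.40 FPKM (SD, n = 3) in M-cDC2 and 17.4 ± 5.49 in L-cDC2, but only 0.363 ± 0.180 in M-cDC1 and 0.361 ± 0.285 in L-cDC1. L-cDC1 replicate 2 held 2 reads of Ifit1 against 24 and 29 in the other L-cDC1 libraries. Ifit2 stood apart from its relatives, since cDC1 kept 34.0% of the cDC2 level within M and 31.5% within L. Its means were 5.47 ± 1.99 FPKM in M-cDC1 against 16.1 ± 1.92 in M-cDC2, then 5.50 ± 1.52 in L-cDC1 against 17.5 ± 2.50 in L-cDC2. The log2 difference of Ifit2 was -1.44 within M and -1.52 within L, with an SE of 0.22 in each. The 3 genes are neighbours on chromosome 19, with 7112 bp between Ifit2 and Ifit3 and 52140 bp between Ifit3 and Ifit1 in the deposited coordinates. Ifit3 has a near-identical copy in the mouse, Ifit3b, and Ifit1 has a relative, Ifit1bl1. Any reads shared with these could be split in ways the deposited values do not show.

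Isg15 is a ubiquitin-like protein that is attached to other proteins in infected cells, Herc6 is the mouse ligase that attaches it, and Usp18 removes it and also dampens the interferon receptor. The 3 genes were lower in cDC1 by similar factors. Isg15 had 11.9, 9.06 and 11.96 FPKM in L-cDC1 and 10.2, 10.6 and 10.9 in M-cDC1. It had 41.1, 39.6 and 37.6 FPKM in L-cDC2 and 45.8, 37.6 and 30.4 in M-cDC2. The ratio of means, cDC2 over cDC1, was 3.60 within L and 3.59 within M for Isg15, and the groups did not overlap. Usp18 gave a ratio of 3.15 within L and 3.14 within M, with means of 21.4 ± 2.35 FPKM in L-cDC1, 67.5 ± 4.53 in L-cDC2, 19.2 ± 2.95 in M-cDC1 and 60.2 ± 3.61 in M-cDC2. Usp18 had the second highest mean of the members in both cDC2 groups. Herc6 had low levels throughout, with means of 1.29 ± 0.467 FPKM in M-cDC1 against 3.77 ± 0.389 in M-cDC2, then 1.26 ± 0.566 in L-cDC1 against 4.42 ± 0.450 in L-cDC2. The limma adjusted p was 5.43e-07 within M for Isg15, 2.17e-07 for Usp18 and 0.00156 for Herc6.

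The Oas enzymes make oligoadenylates that switch on an RNA-cutting enzyme, and Oasl1 and Oasl2 are their relatives. Oas2 had 30.0, 33.8 and 31.9 FPKM in L-cDC2 and 28.5, 23.8 and 22.1 in M-cDC2. In L-cDC1 it had 0.0594, 0.531 and 0.141 FPKM, and in M-cDC1 0.0400, 0.327 and 0.102. Its mean in cDC1 was 0.764% of that in cDC2 within L and 0.631% within M. The log2 difference was -4.48 within M (SE 0.18, limma adjusted p = 1.78e-10) and -4.74 within L (SE 0.18, limma adjusted p = 1.06e-10). Oas1a was as high as 39.99 to 62.3 FPKM in the cDC2 libraries and 0.0512 to 3.35 in the cDC1 libraries. Replicate 2 was the lowest library of Oas1a in each cDC1 group, with 0.0512 FPKM in that of L and 0.267 in that of M. Reads of Oas1a can be shared with the near copy Oas1g. Oasl2 fell from 14.8 ± 0.755 FPKM in M-cDC2 to 0.397 ± 0.245 in M-cDC1 and from 12.4 ± 3.41 in L-cDC2 to 0.493 ± 0.388 in L-cDC1. Oas3 was low in every group, with 5.19 ± 1.23 FPKM in M-cDC2, 3.02 ± 1.25 in L-cDC2, 0.486 ± 0.2402 in M-cDC1 and 0.160 ± 0.155 in L-cDC1. All 4 of these genes were called lower in cDC1 within M and within L. Oas2 and Oas3 lie 3245 bp apart on chromosome 5, yet their levels in L-cDC2 were 31.9 and 3.02 FPKM.

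Oasl1, which is known to restrain translation of Irf7 message, did not follow Oasl2, although the genes lie 11004 bp apart on chromosome 5. It had 4.01, 2.26 and 3.25 FPKM in L-cDC1 and 1.64, 0.644 and 1.21 in M-cDC1. In L-cDC2 it had 3.40, 5.21 and 4.39 FPKM, and in M-cDC2 4.87, 2.61 and 4.51. Oasl1 was called lower in cDC1 within M, by -1.20 on the log2 scale (SE 0.25, limma adjusted p = 0.00182). Within L the groups overlapped and the difference did not pass the test (limma adjusted p = 0.273). M-cDC1 was the group with the lowest level of Oasl1.

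Among effectors that act on nucleotides and RNA, Rsad2, Isg20 and Cmpk2 differed between the subsets and Adar and Eif2ak2 did not pass the test. Rsad2 encodes viperin, which makes a chain-terminating nucleotide. It had 0.521 ± 0.206 FPKM in M-cDC1 against 3.75 ± 0.510 in M-cDC2, and 0.465 ± 0.182 in L-cDC1 against 4.23 ± 1.09 in L-cDC2. Rsad2 differed by -1.65 within M and -1.82 within L on the log2 scale, with an SE of 0.21 in each. Its neighbour Cmpk2, a nucleotide kinase, lies 12752 bp away on chromosome 12. Cmpk2 was called lower in cDC1 within M, at 1.38 ± 0.762 FPKM against 4.97 ± 1.07 (log2 difference -1.36, SE 0.28, limma adjusted p = 0.00175). Within L it had 1.74, 2.35 and 2.26 FPKM in cDC1 and 2.40, 6.00 and 3.94 in cDC2, and the limma adjusted p was 0.0801. Without L-cDC2 replicate 1, the lowest of these cDC2 libraries, the log2 difference of Cmpk2 was -0.92 with a limma adjusted p of 0.0225. Isg20, an exonuclease that degrades RNA, had 6.04 ± 0.921 FPKM in M-cDC1 and 7.59 ± 2.38 in L-cDC1. In cDC2 it had 29.0 ± 3.26 FPKM in M and 25.6 ± 6.08 in L. Isg20 differed by -2.09 within M and -1.64 within L on the log2 scale, with an SE of 0.21 in each. Eif2ak2 encodes the kinase PKR, which stops translation on binding double-stranded RNA, and varied little. Its 12 libraries ran from 4.82 to 6.22 FPKM. The 95% interval of its log2 difference was -0.45 to 0.14 within M and -0.34 to 0.25 within L. Adar, the enzyme that edits adenosine to inosine in double-stranded RNA, averaged 11.7 ± 2.09 FPKM in M-cDC1, 15.4 ± 1.55 in M-cDC2, then 15.8 ± 2.97 in L-cDC1 against 16.9 ± 2.50 in L-cDC2. Exons of Adar share 1365 bases (16.8% of its length) with Chrnb2 on the opposite strand, and the library kit does not mark strand.

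Cytosolic sensors among the members were lower in cDC1 within M in all 4 cases. Ddx60, a helicase that promotes sensing of viral RNA, had 4.73, 3.25 and 4.89 FPKM in L-cDC2 and 4.44, 3.42 and 2.85 in M-cDC2. In cDC1 it was close to 0, with 1, 13 and 4 reads in the L-cDC1 libraries and 10, 0 and 6 in the M-cDC1 libraries. This corresponds to a mean of 0.0276 ± 0.0259 FPKM in M-cDC1 and 0.0341 ± 0.0342 in L-cDC1, and the log2 difference was -2.14 within M and -2.34 within L (SE 0.20 in each). Ifih1, which encodes the sensor MDA5, kept 28.3% of the cDC2 level in L-cDC1 and 23.5% in M-cDC1. Its mean was 2.41 ± 0.392 FPKM in M-cDC1 against 10.3 ± 0.658 in M-cDC2, and 2.79 ± 0.586 in L-cDC1 against 9.87 ± 0.347 in L-cDC2. Zbp1, a sensor of Z-form nucleic acid that can start necroptosis, kept 38.8% within L and 36.3% within M, with a log2 difference of -1.25 within L and -1.36 within M (SE 0.20 in each). Dhx58, which encodes LGP2 and modulates MDA5 signalling, was the highest of the 4 sensors in each group. It averaged 18.4 ± 1.32 FPKM in the M-cDC1 libraries against 33.8 ± 6.78 in M-cDC2 (log2 difference -0.83, SE 0.17, limma adjusted p = 0.00159). Within L it had 25.8, 16.9 and 16.9 FPKM in cDC1 and 28.5, 25.8 and 24.6 in cDC2, and the limma adjusted p was 0.0685. Without L-cDC1 replicate 1 the log2 difference of Dhx58 within L was -0.61 with a limma adjusted p of 0.00791, and it also passed without M-cDC2 replicate 1 (-0.41, limma adjusted p = 0.0485).

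Parp9 and Dtx3l work as a complex that joins ADP-ribosylation to ubiquitin ligation, and Parp14 and Parp12 transfer single ADP-ribose units. Parp9 averaged 15.5 ± 0.467 FPKM in M-cDC1 against 27.4 ± 1.83 in M-cDC2, then 17.5 ± 3.25 in L-cDC1 against 27.2 ± 3.62 in L-cDC2. Dtx3l stood at levels close to these, with 15.3 ± 1.89, 23.5 ± 1.89, 16.2 ± 3.39 and 27.9 ± 3.996 FPKM in the same order of groups. The log2 difference was -0.78 within M and -0.61 within L for Parp9 (SE 0.14 in each). That of Dtx3l was -0.59 within M and -0.76 within L (SE 0.16 in each), and with median-of-ratios scaling the value within M no longer passed the test (-0.40, limma adjusted p = 0.0561). The genes lie head to head on chromosome 16 and share 458 exon bases on opposite strands, so some of their reads cannot be told apart. Parp14 was called lower in cDC1 with log2 differences of -0.995 within M and -1.32 within L (SE 0.13 in each), from 10.4 ± 0.654 FPKM in M-cDC2 and 11.5 ± 0.571 in L-cDC2. Parp12 behaved differently and is described with the exceptions.

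On the log2(FPKM + 1) scale Rtp4 showed the largest difference of any member, within M and within L. It encodes a Golgi chaperone of receptors that is also known to bind viral RNA, and the deposited table places it on chromosome 16 from 23339041 to 23432972, plus strand, without naming a build. Rtp4 had 52.8, 63.1 and 56.1 FPKM in L-cDC2 and 53.4, 56.4 and 52.4 in M-cDC2. In L-cDC1 it had 9, 32 and 24 reads, or 0.223, 0.724 and 0.588 FPKM. In M-cDC1 it had 3, 5 and 12 reads, or 0.0627, 0.131 and 0.257 FPKM. The log2 difference of Rtp4 was -5.58 within M (SE 0.15, limma adjusted p = 6.23e-12) and -5.28 within L (SE 0.15, limma adjusted p = 9.23e-12). Its exons share 296 bases (13.9% of the length) with an unnamed noncoding gene on the same strand.

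Of the remaining members, Ifi27l2a, Xaf1 and Helz2 were lower in cDC1 within M and within L. Ifi27l2a encodes a small interferon-induced membrane protein and had the widest range in absolute level. It had 233, 230 and 221 FPKM in L-cDC2 and 324, 183 and 236 in M-cDC2. In cDC1 it had 27.3, 31.1 and 36.9 FPKM in L and 30.2, 34.8 and 30.0 in M. The ratio of means was 7.17 within L and 7.83 within M. Xaf1, which binds and opposes the apoptosis inhibitor XIAP, gave a log2 difference of -1.71 within M and -1.69 within L (SE 0.18 in each), for example from 12.5 ± 1.01 FPKM in L-cDC2 to 3.26 ± 0.956 in L-cDC1. Helz2, a helicase and coactivator of nuclear receptors, gave -1.16 within M and -1.23 within L (SE 0.17 in each), and its lowest and highest group means were 1.28 ± 0.207 FPKM (M-cDC1) and 4.78 ± 0.517 (L-cDC2). Samd9l, an antiviral protein that represses translation, was among the 2 highest members of cDC1, with 37.0 ± 4.80 FPKM in M and 37.6 ± 10.2 in L. In cDC2 it had 50.7 ± 7.97 FPKM in M and 52.7 ± 6.85 in L. It was called lower within L by -0.50 (SE 0.19, limma adjusted p = 0.0484), but this call was lost in 13 of 19 other settings. Among these were fits without L-cDC1 replicate 2 or 3, L-cDC2 replicate 1 or 2, M-cDC1 replicate 1 or 2, or M-cDC2 replicate 1 or 3. The limma adjusted p then reached at most 0.212. Over the 13 settings the log2 difference lay between -0.56 and -0.28. Within M, where Samd9l was not called (limma adjusted p = 0.0846), it passed with limma-voom on recovered reads (-0.47, limma adjusted p = 0.0494) and without L-cDC1 replicate 3 (0.0324) or M-cDC2 replicate 2 (0.0456).

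**Figure D2:**
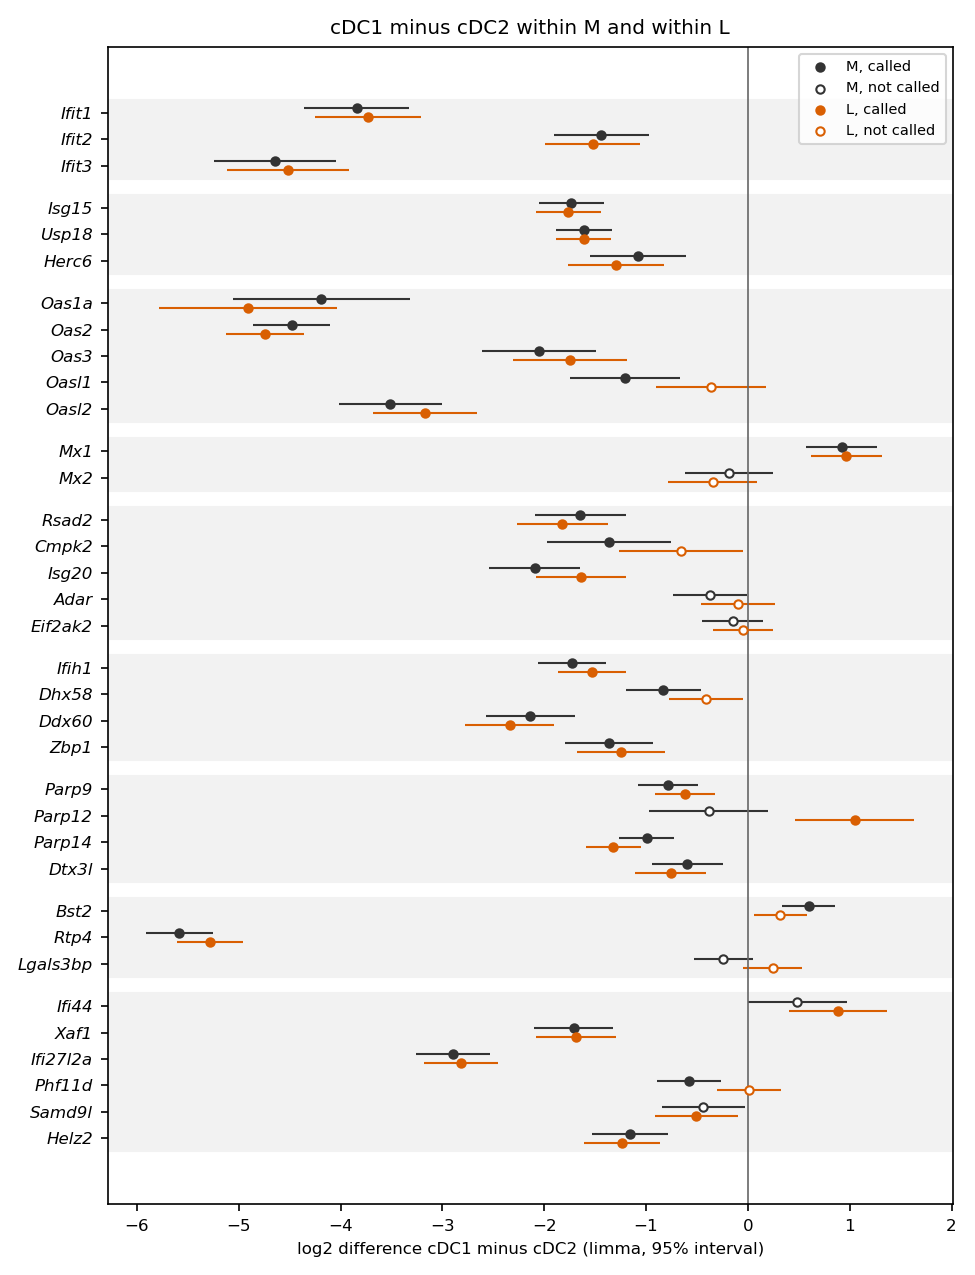
Log2 difference of each member, cDC1 minus cDC2, within M (black) and within L (orange), with 95% intervals from limma and open circles where the difference was not called. Of the 35 members, 22 lie left of 0 with filled circles in both comparisons, and Mx1 lies right of 0 with filled circles in both.

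A group of 7 members had a cDC1 mean under 5% of the cDC2 mean within both M and L. The limit of 5% was chosen after the values were seen. The share of all genes under this limit was not counted, so the number cannot be read as a trait of the members. They were Ifit1, Ifit3, Oas1a, Oas2, Oasl2, Rtp4 and Ddx60. The lowest share was that of Rtp4 within M, at 0.278%, and the highest that of Oas1a within M, at 4.22%. Some cDC2 in a cDC1 sort would give reads of such genes. The cDC2 marker Clec4a4 stood in cDC1 at 0.125% of its cDC2 level within M and 0.197% within L, Sirpa at 0.170% and 0.449%, Cd209a at 1.895% and 2.91%, and Cd4 at 3.19% and 3.42%. Their part in the residual reads was not tested. The other 28 members kept a larger share, from 5.305% for Oas3 within L upward.

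Not all members were lower in cDC1. Mx1, an antiviral GTPase of the dynamin family that C57BL/6 mice carry in a defective form, was higher there. It had 24.2, 27.9 and 22.2 FPKM in L-cDC1 and 27.3, 20.0005 and 26.2 in M-cDC1. In L-cDC2 it had 13.5, 11.3 and 11.7 FPKM and in M-cDC2 15.7, 10.96 and 10.9. Every cDC1 library exceeded every cDC2 library. The log2 difference was 0.92 within M (SE 0.16, limma adjusted p = 0.000507) and 0.97 within L (SE 0.16, limma adjusted p = 0.000325). Mx2, its neighbour 72401 bp away on chromosome 16, had only 1.01 to 2.64 FPKM over the 12 libraries and was not called. The deposited table types both Mx1 and Mx2 as polymorphic pseudogenes.

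Bst2, or tetherin, holds budding virus particles on the cell surface and also marks plasmacytoid dendritic cells in the mouse. It had 58.3, 65.6 and 54.1 FPKM in M-cDC1 and 51.0, 50.4 and 42.6 in L-cDC1. In cDC2 it had 37.0, 39.0 and 40.5 FPKM in M and 44.3, 36.5 and 34.4 in L. Bst2 was called higher within M, by 0.60 (SE 0.12, limma adjusted p = 0.00144), where the groups did not overlap. Within L, L-cDC1 replicate 3 lay below L-cDC2 replicate 1, and the difference of 0.32 missed the threshold (limma adjusted p = 0.0502). It passed in 8 other settings, for example with median-of-ratios scaling (0.51, limma adjusted p = 0.00461) and without L-cDC2 replicate 1 (0.42, limma adjusted p = 0.0179).

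Ifi44, whose product is linked to the antiviral state, was low everywhere and higher in cDC1. It had 1.41, 1.76 and 0.972 FPKM in L-cDC1 and 1.08, 0.767 and 0.721 in M-cDC1, against 0.267, 0.374 and 0.189 in L-cDC2 and 0.406, 0.0719 and 0.522 in M-cDC2. The groups did not overlap in L or in M. The log2 difference of 0.89 was called within L (SE 0.22, limma adjusted p = 0.00629). Within M it was not called (limma adjusted p = 0.105), except with quantile normalization (0.77, limma adjusted p = 0.0115) and with limma-voom on recovered reads (1.65, limma adjusted p = 0.0329). Ifi44 was the lowest of the 35 members in both cDC2 groups.

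Lgals3bp, a secreted glycoprotein that binds galectins, lay between 22.2 and 36.4 FPKM in all 12 libraries and was not called between the subsets. Within L its log2 difference reached the threshold with median-of-ratios scaling (0.44, limma adjusted p = 0.0212) and with quantile normalization (0.38, limma adjusted p = 0.0457). Phf11d, a PHD finger gene with close relatives beside it on chromosome 14, had 6.76 ± 0.435 FPKM in M-cDC1, 7.03 ± 1.31 in L-cDC1 against 6.90 ± 0.482 in L-cDC2. M-cDC2 stood above these at 10.6 ± 0.760 FPKM. Phf11d was called lower in cDC1 within M by -0.58 (SE 0.15, limma adjusted p = 0.00641), and with quantile normalization this was -0.32 and not called (limma adjusted p = 0.104). Reads of the Phf11 family can be shared, so its level is uncertain. Together with Mx2, Eif2ak2 and Adar, Lgals3bp made up the 4 members called in neither comparison.

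**Figure D3:**
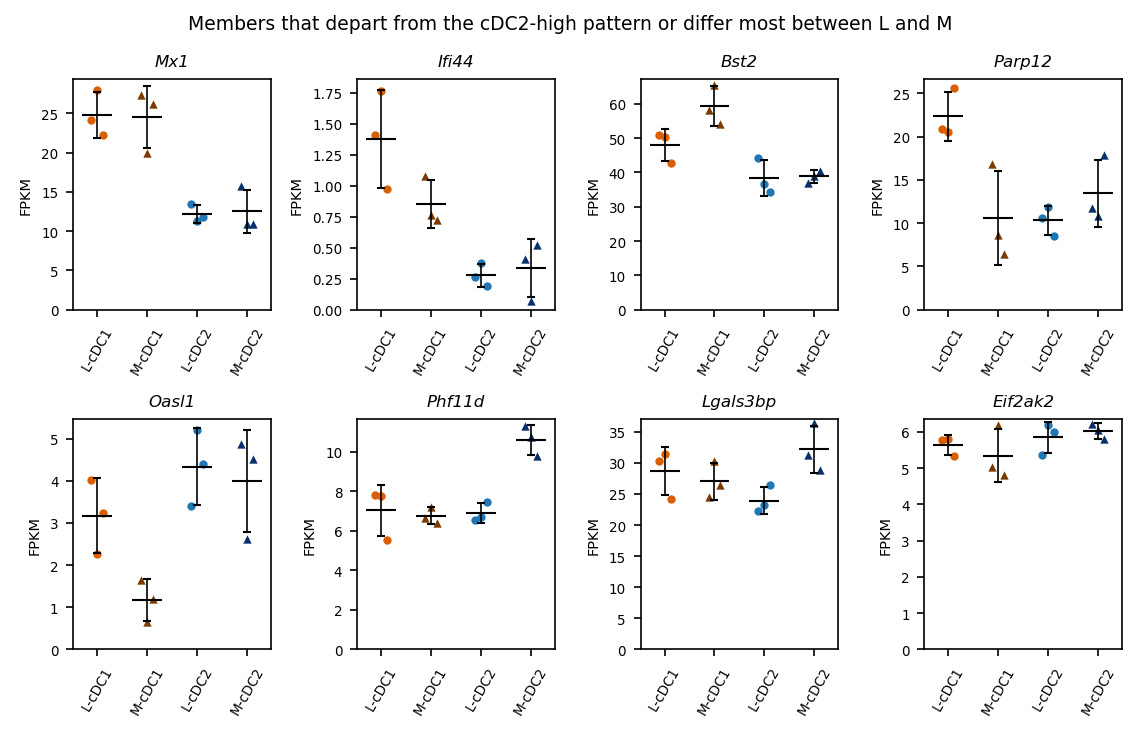
FPKM per library of 8 members that did not follow the majority or differed most between L and M, in the 4 groups, with the mean and SD of 3 libraries. Mx1 lies above in both cDC1 groups, Parp12 lies above in L-cDC1, and Eif2ak2 lies between 4.82 and 6.22 in all libraries.

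The comparison of L with M asks whether cells of one subset differ in this programme when the letter differs. No member was called in either subset with limma. In cDC1, 0.354% of all genes tested were called higher in L and 0.0402% lower. In cDC2, 1.04% were called higher and 0.788% lower, so few calls would be seen among 35 genes at the background rate. At an unadjusted p under 0.05 there were 5 members in cDC1 (Adar, Bst2, Oasl1, Parp12 and Rtp4) and 3 in cDC2 (Lgals3bp, Oas3 and Phf11d). The share of all genes past this unadjusted threshold was not counted, so these numbers have no background to be read against. With limma-voom on recovered reads the number called was also 0 in both. The member differences had a median of 0.07 in cDC1 and -0.02 in cDC2, where all genes had 0.02 and 0.03. In cDC1, 24 members lay above 0 and 11 below. In cDC2, 15 lay above and 20 below.

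The intervals bound the differences on the log2(FPKM + 1) scale, and they do not bound the fold of a gene at a low level. In cDC1 the 95% interval of the log2 difference, L minus M, stayed within -1 to 1 for 31 of the 35 members. The other 4 were Oas1a, Oasl1, Cmpk2 and Parp12. In cDC2 it stayed within those bounds for 34 members, the exception being Oas3. Rtp4 and Oas3 show the limit of this scale, since both are near 0 in cDC1. Rtp4 had an interval of 0.06 to 0.71 in cDC1 while its ratio of means, L over M, was 3.41. Oas3 had -0.91 to 0.21 there while its ratio, M over L, was 3.03. Isg15 may serve as an example, with an interval of -0.28 to 0.36 in cDC1 and -0.25 to 0.39 in cDC2. For Usp18 the interval was -0.12 to 0.43 in cDC1 and -0.11 to 0.43 in cDC2. A p that misses the threshold does not show that L and M had the same level.

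**Figure D4:**
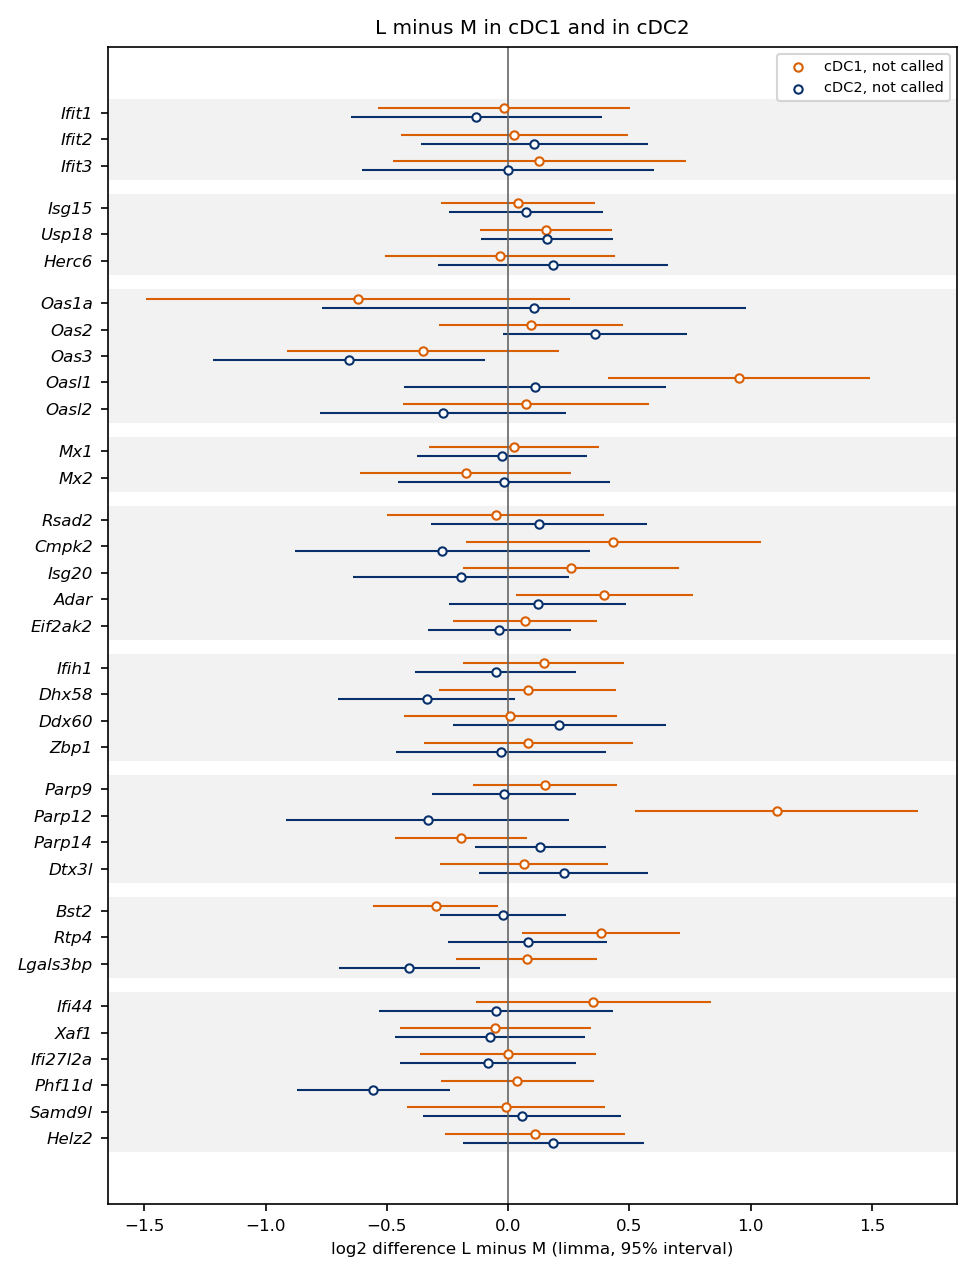
Log2 difference of each member, L minus M, in cDC1 and in cDC2, with 95% intervals from limma. No member was called, and the values farthest from 0 are those of Parp12 and Oasl1 in cDC1 (1.11 and 0.95) and of Oas3 in cDC2 (-0.66).

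Parp12, whose product modifies proteins with ADP-ribose and blocks viral translation, had the largest of these differences on the log2(FPKM + 1) scale. By ratio of means in cDC1, 4 members at lower levels differed more than Parp12 (2.11, L over M), namely Rtp4 (3.41) and Oasl1 (2.73) toward L, and Oas3 (3.03) and Oas1a (2.34) toward M. Parp12 had 20.9, 20.6 and 25.6 FPKM in L-cDC1 and 16.8, 8.57 and 6.41 in M-cDC1. In L-cDC2 it had 10.6, 11.9 and 8.48 FPKM, and in M-cDC2 11.7, 10.8 and 17.8. The L-cDC1 libraries were the 3 highest of the 12, and M-cDC1 replicate 1 stood apart from the other M-cDC1 libraries. The log2 difference of Parp12, L minus M in cDC1, was 1.11 (SE 0.27, limma adjusted p = 0.118). Without M-cDC1 replicate 1 it was 1.47 and passed the test (limma adjusted p = 0.00926). Within L, Parp12 was called higher in cDC1 than in cDC2 by 1.05 (SE 0.27, limma adjusted p = 0.00721). Within M it was not called (limma adjusted p = 0.292), and without M-cDC1 replicate 1 it was called lower, at -0.75 (limma adjusted p = 0.0192).

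On the log2 scale Oasl1 was next in cDC1, where all L libraries (2.26 to 4.01 FPKM) lay above all M libraries (0.644 to 1.64), but the log2 difference of 0.95 did not pass the test (SE 0.25, limma adjusted p = 0.147). In cDC2 the smallest adjusted p belonged to Phf11d. It had 6.54, 6.71 and 7.45 FPKM in L-cDC2 and 11.3, 10.7 and 9.81 in M-cDC2, without overlap. The log2 difference of Phf11d was -0.56 (SE 0.15, limma adjusted p = 0.0887). How many of all genes lack overlap between L and M was not counted. Phf11d passed with quantile normalization (-0.62, limma adjusted p = 0.0431) and in the fit without L-cDC1 replicate 3 (limma adjusted p = 0.0406). B cell and T and NK cell markers were higher in the L libraries, as given above, and their part in these differences was not tested.

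Whether the L minus M difference itself differed between cDC1 and cDC2 was tested as an interaction. No member was called with limma, where 0.193% of all genes were called higher and 0.105% lower. There were 4 at an unadjusted p under 0.05 (Lgals3bp, Oasl1, Parp12 and Phf11d) and 0 calls with limma-voom. Here too the share of all genes past the unadjusted threshold was not counted. Parp12 had the smallest adjusted p, with an interaction of 1.44 (SE 0.38, limma adjusted p = 0.236). Without M-cDC1 replicate 1 this was 1.80 with a limma adjusted p of 0.0273. The members called within M and not within L, Cmpk2, Dhx58, Oasl1, Phf11d and Bst2, or within L and not within M, Samd9l, Ifi44 and Parp12, were therefore not shown to differ between M and L.

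The pathway upstream of the members was examined through 4 further lists. Of 21 ligand genes on the list, 19 were listed at 0 in all 12 libraries. A listed 0 need not mean that RNA was absent, since Trex1, a broadly expressed exonuclease on another of the lists, was also listed at 0 in all 12. The others were Ifnk, at most 0.411 FPKM, and Ifng, the type II interferon of T and NK cells, at most 0.745 FPKM and detected in L libraries only. No ligand passed the filter on low values.

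Of 14 receptor and signalling genes tested, 6 were lower and 3 higher in cDC1 within M, and 5 were lower and 2 higher within L. Over all genes tested, 25.4% were lower and 12.7% higher within M, and 26.6% and 12.9% within L. Both numbers within L and the number higher within M were near this background. Whether any of these counts departs from its share was not tested. The receptor chain Ifnar2 had 26.1, 31.5 and 36.3 FPKM in L-cDC1 and 26.3, 38.3 and 33.4 in M-cDC1, against 58.1, 59.8 and 62.8 in L-cDC2 and 73.1, 104.8 and 78.05 in M-cDC2. Its log2 difference was -1.36 within M (SE 0.16, limma adjusted p = 1.70e-05) and -0.93 within L (SE 0.16, limma adjusted p = 0.000456). The other chain, Ifnar1, lay between 17.6 and 29.2 FPKM in all libraries and was not called. Stat2 was lower in cDC1, at 25.6 ± 3.17 FPKM in M-cDC1 against 45.5 ± 5.50 in M-cDC2, and at 25.9 ± 3.20 in L-cDC1 against 53.9 ± 5.82 in L-cDC2. On the log2 scale Stat2 differed by -0.81 within M and -1.03 within L (SE 0.13 in each). Irf9 lay between 27.4 and 41.6 FPKM over the 12 libraries and was not called. Jak1 was lower in cDC1 by -0.60 within M and -0.68 within L (SE 0.10 in each). Ifngr1, a chain of the type II interferon receptor, was higher in cDC1, at 511 ± 22.0 FPKM in M-cDC1 against 360 ± 24.9 in M-cDC2, and at 505 ± 45.4 in L-cDC1 against 340 ± 6.97 in L-cDC2. Its log2 difference was 0.51 within M and 0.57 within L (SE 0.09 in each, limma adjusted p = 0.000436 and 0.000167). The other genes called higher were Tyk2, by 0.70 within M and 0.65 within L (SE 0.13 in each), and the feedback inhibitor Socs1, by 0.87 within M (SE 0.20). Tyk2 and Socs1 are named here after their values were seen. Irf7, a factor that amplifies interferon production, averaged 53.9 to 71.1 FPKM over the 4 groups and was not called.

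Of 18 listed sensors and adaptors, 14 were tested. Within M 7 were lower and 1 higher in cDC1, and within L 5 were lower and 2 higher. The shares over all genes were 25.4% and 12.7% within M and 26.6% and 12.9% within L. Again both numbers within L and the number higher within M were near the background, and no count was tested against its share. Ddx58, which encodes the RNA sensor RIG-I, was close to absent from cDC1, at 0.0963 to 0.479 FPKM in L and 0.0635 to 0.252 in M. In cDC2 it had 15.2 to 21.4 FPKM, and the log2 difference was -4.08 within M and -3.84 within L (SE 0.18 in each). Tlr7, the endosomal sensor of single-stranded RNA, differed by -3.96 within M and -3.53 within L (SE 0.24 in each). Sting1, the adaptor of cytosolic DNA sensing, differed by -1.69 and -1.97 (SE 0.11 in each). Tlr3, the endosomal sensor of double-stranded RNA and a known cDC1 gene, had the opposite direction, with 70.0 ± 9.57 FPKM in M-cDC1 against 2.18 ± 0.370 in M-cDC2, and 63.2 ± 9.13 in L-cDC1 against 1.60 ± 0.244 in L-cDC2. On the log2 scale Tlr3 differed by 4.48 within M and 4.62 within L (SE 0.15 in each). No gene of the receptor or sensor lists was called between L and M in either subset.

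**Figure D5:**
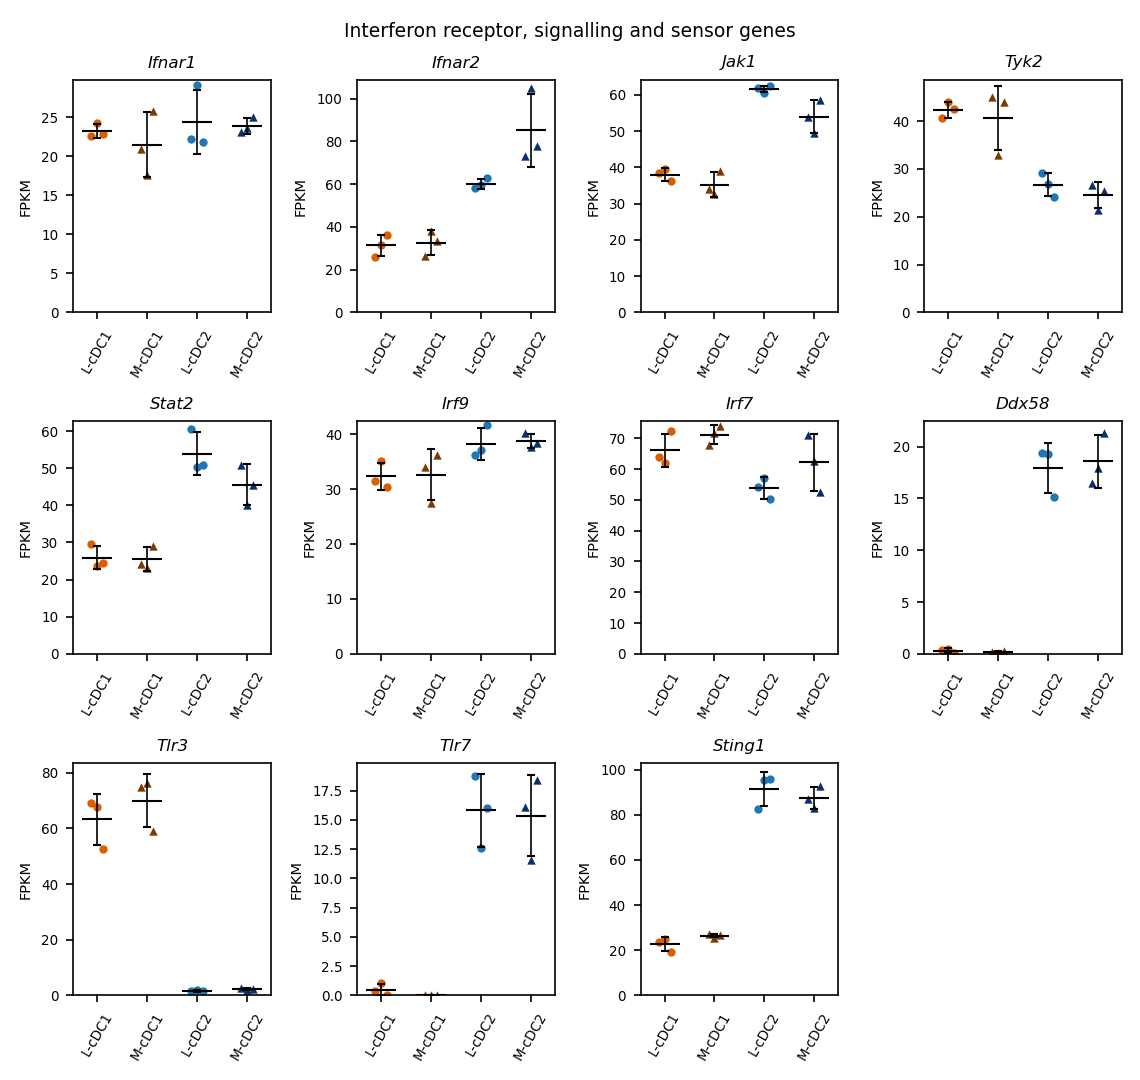
FPKM per library of 11 interferon receptor, signalling and sensor genes in the 4 groups, with the mean and SD of 3 libraries. Ifnar2, Jak1, Stat2, Ddx58, Tlr7 and Sting1 lie lower in the cDC1 groups, Tlr3 and Tyk2 lie higher there, and Ifnar1 lies between 17.6 and 29.2 in all libraries.

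Among 41 tested genes of a list of other interferon-induced genes, 20 were lower and 6 higher in cDC1 within M, and 21 were lower and 8 higher within L. Against 25.4% lower and 12.7% higher over all genes within M, and 26.6% and 12.9% within L, the number higher within M was near the background. The smallest p in both comparisons was that of Ms4a4c, a membrane protein of myeloid cells, with -5.48 within M and -5.03 within L. Ifi27, a relative of Ifi27l2a, differed by -3.82 within M and -3.76 within L. Ifitm1, which hinders viral entry, differed by -5.93 within M (SE 0.30), where M-cDC2 replicate 2 had 149.5 FPKM and the other M-cDC2 libraries 49.9 and 65.4. Its relative Ifitm3 differed by -2.34 within L (SE 0.13).

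Of the 4 lists, this was the one with calls between L and M, namely 3 of 41 genes that were lower in L-cDC2, where 0.788% of all genes tested were. Ifitm2 had 74.8, 58.2 and 76.5 FPKM in L-cDC2 and 115.0, 143.4 and 114.5 in M-cDC2 (log2 difference -0.83, SE 0.12, limma adjusted p = 0.00202). Ifitm3 had 593, 602 and 646 FPKM against 883, 1099 and 1007 (-0.69, SE 0.13, limma adjusted p = 0.0133). Ube2l6, the enzyme that passes Isg15 to its ligase, had 12.6, 11.8 and 14.6 FPKM against 24.7, 24.5 and 20.1 (-0.78, SE 0.17, limma adjusted p = 0.0302). The L-cDC2 and M-cDC2 libraries of these genes did not overlap, which is no further support, since the genes were picked by their calls. The calls of Ifitm3 and Ube2l6 were lost in the fits without L-cDC2 replicate 1 (limma adjusted p = 0.0559 and 0.0965), without L-cDC2 replicate 2 (0.0602 and 0.136) and without M-cDC2 replicate 2 (0.0727 and 0.130). That of Ifitm3 was also lost without M-cDC2 replicate 3 (0.0641) and that of Ube2l6 without M-cDC2 replicate 1 (0.110) and with limma-voom on recovered reads (0.0666). With no filter on low values neither passed (0.0726 and 0.0982). Of 4 monocyte markers tested, Lyz2 and Ccr2 were also called lower in L-cDC2. The sum of the 5 listed markers, 187 to 357 FPKM in L-cDC2 and 813 to 1031 in M-cDC2, was almost all Lyz2, with 182 to 351 and 804 to 1021. Ly6c2 averaged 1.92 ± 0.768 FPKM in L-cDC2 and 0.945 ± 0.504 in M-cDC2 and was not called. The part of these markers in the differences was not tested.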

How the data were processed

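RNA of 12 samples of mouse spleen cDCs was sequenced, 3 in each of 4 groups. Libraries were made with SMART-Seq HT and Nextera XT kits, per the labels' protocols, which do not mark strand. The authors deposited FPKM values, per the file headers, with gene lengths. Per the submitters' processing notes, tools included STAR 2.7.9a and featureCounts 2.0.1, besides DESeq2 1.20.0, cutadapt 3.7, Trimmomatic 0.39 and Trim Galore 0.6.7. Their roles and order are not given, and the build named there is the human GRCh38. The deposited table names no build.

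FPKM times length gave whole reads within 0.01 read for 100% of values, and these reads served depth and limma-voom only. The filter asked for 1 FPKM or more in 3 or more of 12 libraries. Ifit1, Oas2, Oas3, Oasl2, Rsad2, Rtp4 and Ddx60 reached 1 FPKM in cDC2 libraries only, and Ifi44 in cDC1 libraries only. For these genes, entry into the test was not independent of the subset difference. The 12434 genes that passed, all 35 members included, were fitted as log2(FPKM + 1) in 1 model of all libraries with limma 3.58.1 (R 4.3.3, intensity trend, 8 residual degrees of freedom). P-values were adjusted by Benjamini-Hochberg over all genes of a contrast. The fit was tested on simulated reads with known changes in M-cDC1 and a spread setting shared by all genes. This does not cover members near 0 whose reads vary more, such as Oas1a in L-cDC1 (57, 2 and 37 reads). With 3 libraries a group, the smallest two-sided p of an exact permutation test is 0.1, and none was run. Errors are SDs of 3 libraries or SEs of limma.

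All members were named, with differences where called. Of each pathway list, up to 3 called genes with the smallest p per comparison were named, plus Ifnar1, Ifnar2, Stat2, Irf9 and Irf7. A further gene of this rule is not reported here. Members, lists and tests were chosen with earlier results of these data known. Alternatives were another pseudocount, no filter, other scalings, limma-voom, a fit of only the groups compared, a replicate block and leaving out each library. Applying them to the pathway lists was decided after the data were seen. Markers of other cell types are given where they move with a result.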

Additional observations from a re-analysis of the deposited data

How the results depend on the processing

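Across 19 other settings no recomputed difference changed direction. Recomputed were the called members and, of each pathway list and comparison, up to 3 called genes with the smallest p, plus Ifnar2 and Stat2 where called. Tyk2, Socs1 and the markers of other cell types were not recomputed. Within M, 27 to 30 members were called over the settings that kept all libraries, and 28 to 29 without 1 library. Within L the numbers were 25 to 28 and 25 to 27. The median log2 difference of the members, -1.36 within M and -1.29 within L, was -1.61 and -1.65 with a pseudocount of 0.1, -1.18 and -1.15 with median-of-ratios scaling, -1.06 and -1.05 with quantile normalization, and -1.67 and -1.66 with limma-voom. Without 1 library it ran from -1.42 to -1.22 within M and from -1.38 to -1.24 within L. The cause was not tested. Between L and M, quantile normalization called 1 member in cDC2 (Phf11d), and leaving out 1 library gave 0 to 1 in cDC1 (Parp12), 0 to 1 in cDC2 (Phf11d) and 0 to 1 in the interaction (Parp12). Of the pathway lists, 43 genes were called within M and 43 within L (39 to 44 and 40 to 45 without 1 library). In L minus M of cDC2 the 3 calls became 1 with no filter on low values and 1 to 3 without 1 library. In cDC1 and in the interaction, leaving out 1 library gave 0 to 1. With the replicate number as a block 29 members were called within M, 28 within L and 0 elsewhere. The block added Samd9l within M (limma adjusted p = 0.0452) and Bst2 and Dhx58 within L (0.0457 and 0.0268), and Ube2l6 in L minus M of cDC2 no longer passed (0.0508). Deviations from the group mean were correlated between libraries of different groups. The correlations ran from -0.0101 to 0.156 for pairs with the same number and from -0.153 to 0.0885 for other pairs. Of 18 same-numbered pairs, 3 lay above 0.1, and 3 of 12 libraries correlated best with their own number in every other group. The main fit held no block because the labels do not say that a number marks a shared animal or day. For every pair of groups, the lowest same-numbered correlation lay above the lowest of the other pairs. The highest did so too, except for L-cDC2 with M-cDC1. Same-numbered pairs thus leaned higher, but whether a number marks a shared animal or day was not tested. At these depths, members near 0 in cDC1 rest on few reads, and levels under 0.122 to 0.189 FPKM on a gene of 1 kilobase were not resolved.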
